A study of Mus musculus with 24 samples.

Results

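Organoids grown from salivary glands of irradiated mice were compared with organoids from sham-irradiated glands, 14 days after the treatment and at passage 1 of the culture. The comparison holds 6 libraries of the 24 in the series, 3 irradiated (IR) and 3 sham. They were chosen by their labels for day, passage and treatment, without use of any measured value. The rest of the series repeats the comparison at passage 2 and at day 90. All groups were C57BL/6 mice, and both arms were cultured as salivary gland stem/progenitor cells in Matrigel with EGF, FGF2, insulin, dexamethasone, the ROCK inhibitor Y-27632 and the N2 supplement. The IR arm differed from the sham arm by irradiation before the glands were taken into culture. Neither the radiation dose nor the age of the mice was given in the labels. The cells measured had therefore grown in culture after irradiation, under growth factors that both arms received. RNA was read from the 3′ end of transcripts (QuantSeq), so a gene's count does not scale with its length. Whether the 3 replicates of an arm are different mice, different cultures or repeats of 1 culture was not stated, and the p-values therefore describe library-to-library spread that could be technical only.

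Cells answer oxidants and reactive aldehydes largely through NRF2, a transcription factor that KEAP1 marks for degradation until it is oxidised. NRF2 with a small MAF partner then binds antioxidant response elements and raises enzymes that make glutathione, attach it to electrophiles, reduce peroxiredoxins and supply NADPH. Squamous differentiation is the programme by which stratified epithelium moves from basal cells marked by p63 to suprabasal cells with stress keratins, S100 proteins, epidermal proteases and a cornified envelope, and salivary ducts can take it on under injury. The prolactin family is enlarged in rodents, where most members are placental, and the Prl2c members are known as proliferins. Myoepithelial cells are contractile basal cells that surround salivary acini and share p63 and basal keratins with basal duct cells.

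Gene counts came to 1151608 to 2192990 per library (IR replicates 2 and 1), with 13402 to 14742 genes detected. Gm42418, a predicted gene within the ribosomal RNA repeat, held 21.7% to 25.9% of all counts, and mitochondrial ribosomal RNA took 10.8% to 15.8%. Sham replicate 1 stood apart by its share of reads on no gene, 26.5% against 15.1% to 18.7% in the other 5 libraries. Epithelial markers were present in both arms. The adhesion molecule Epcam stood at 479, 478 and 489.7 CPM in sham and 591, 623 and 439.8 CPM in IR (CPM, a gene's count relative to the TMM-scaled library total), and the basal keratin Krt14 at 3485, 2313 and 2842 CPM in sham and 3509, 4574 and 3085 CPM in IR. Several defining markers of other cell types had few counts, although other members of their lists were present. The fibroblast list summed to 945, 663 and 668 CPM in sham, above Epcam in each library, with Postn the main part. In IR it summed to 95.7, 46.3 and 207 CPM. Col1a1, Col1a2 and Pdgfra of fibroblasts had 1, 3 and 3 counts over the 6 libraries, Ptprc of leukocytes had 7, and Pecam1 and Cdh5 of endothelium had 9 and 1.

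Irradiation history was accompanied by higher levels of antioxidant and detoxification genes, of 2 proliferin genes and of a few squamous-list, secretory and surface proteins. Levels of 5 genes were lower, among them 3 that bind signalling ligands. With edgeR's quasi-likelihood test and Benjamini-Hochberg adjustment at 0.05, 36 of 10563 tested genes were called (0.341% of them), 31 higher (0.293%) and 5 lower (0.0473%). At an unadjusted p under 0.05 there were 581 genes higher (5.5%) and 579 lower (5.48%). The called genes were thus mostly higher, while the wider set was even. For all 36 the sham and IR libraries did not overlap, as was the case for 1821 tested genes (17.2%), 934 higher (8.84%) and 887 lower (8.4%). The counts given for each gene list below are to be read beside these shares. IR replicate 3 was the IR library nearest to sham for all 31 genes called higher and for 4 of the 5 called lower, and for 59.0% of the 1821 genes without overlap. Without IR replicate 3 there were 146, and 35 of the 36 were among them. Without any 1 of the other 5 libraries 0 to 2 were left, and none without sham replicate 1. Aldh1a3 held in 4 of these 5 fits, Slc48a1 without sham replicate 3 and Prl2c2 without IR replicate 1. With a block for the replicate number, 4 of the 36 were left: Aldh1a3, Prl2c2, Vnn1 and Gas1.

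**Figure D1:**
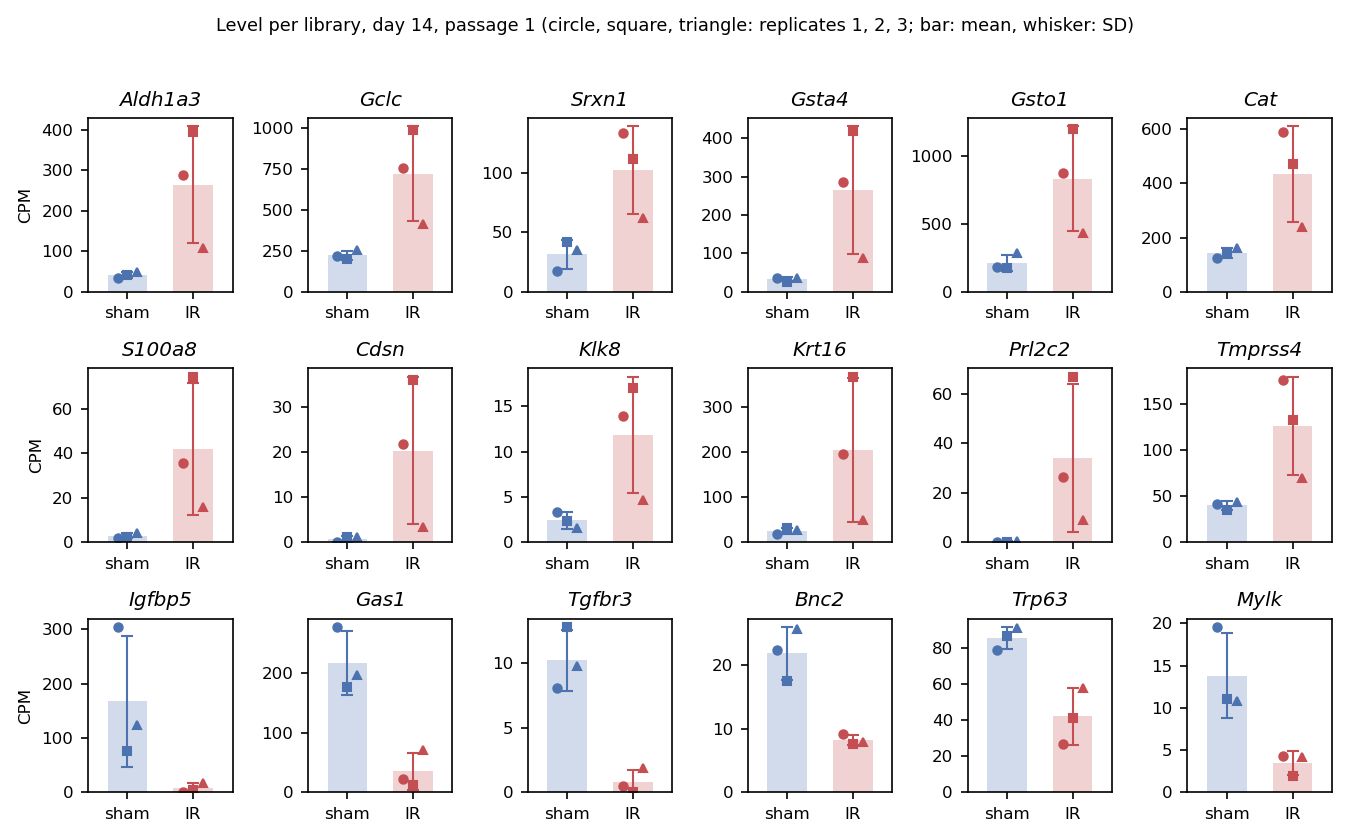
Level of 18 genes in the 6 libraries, in CPM on linear axes that start at 0; points are libraries, bars the mean of 3 and whiskers the SD. In the upper rows the IR triangle (replicate 3) lies closest to the sham points, for Aldh1a3 at 109 CPM against 288 and 395 CPM in the other IR libraries, and the lower row holds genes that were lower in IR, of which Trp63 and Mylk were not called.

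Antioxidant and detoxification genes, called antioxidant genes below, made up 9 of the 31 genes called higher. Of these 9, Cyp1b1 and Abcc4 came from the quinone, carbonyl and xenobiotic group and are not antioxidant enzymes. Of 114 genes listed in 7 functional groups, 91 passed the filter on low counts, and 9 of these rose (0.293% of all tested genes did) and 0 fell. DESeq2 called 12 higher and 1 lower, and at an unadjusted p under 0.05 the 91 held 23 higher and 1 lower. The IR libraries lay wholly above the sham libraries for 35 of the 91 (38.5%) and wholly below for 2 (2.2%), against 8.84% and 8.4% of all tested genes. Their median log2 fold change was 0.28, beside −0.01 over all tested genes. A gene high in 1 group alone can pass the filter because of that group, so these counts describe the members tested and no more. The summed level of the listed genes was 6361, 7397 and 7843 CPM in sham and 11940.0, 13423 and 9199 CPM in IR. Sham replicates 2 and 3 and IR replicate 3 were thus closer to each other than to IR replicates 1 and 2.

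Promoter sequence was examined for the antioxidant response element. The called genes were picked by their values in this same comparison, and a shared regulator was not tested. The core of the antioxidant response element, TGACNNNGC, was searched on both strands from 250 bases before to 50 bases after each start in RefSeq promoters of build GRCm38.p6. It begins like the AP-1 motif, which was not searched. It was present in 4071 of 32851 promoters (12.4%). Of the tested genes with an entry 17.2% had it in at least 1 promoter, as did 19 of 82 tested antioxidant genes (23.2%) and 3 of the 6 called ones with an entry, Abcc4, G6pdx and Srxn1. Over all called genes with an entry it was 8 of 23 (34.8%). The matches are shown for these 3 genes, read 5′ to 3′ along the gene's strand, with the motif or its reverse complement in capitals. The windows are chr14:118706210-118706270 and chr14:118676920-118676980 (minus strand) for an upstream and a downstream start of Abcc4, chrX:74428903-74428963 (minus strand) for G6pdx and chr2:152105542-152105570 (plus strand) for Srxn1.
Abcc4 upstream start: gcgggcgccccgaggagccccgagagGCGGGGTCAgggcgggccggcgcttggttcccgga
Abcc4 downstream start: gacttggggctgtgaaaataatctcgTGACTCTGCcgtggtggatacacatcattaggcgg
G6pdx: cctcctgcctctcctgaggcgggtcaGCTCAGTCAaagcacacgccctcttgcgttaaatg
Srxn1: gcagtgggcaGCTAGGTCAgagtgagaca
The Srxn1 stretch covers positions 18 to 46 after the start, and that of G6pdx −83 to −23. A match is a description of letters and not evidence of binding.

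Glutathione synthesis was led by Gclc, which catalyses its rate-limiting step. Gclc stood at 217, 200.2 and 255 CPM in sham and 756, 990.2 and 416 CPM in IR, a log2 fold change of 1.68 (adjusted p = 0.0296, SE 0.32). Every IR library lay above every sham library, with replicate 3 the lowest of the IR group. Slc7a11, which imports the cystine that supplies cysteine, had 80.3, 166 and 102 CPM in sham and 392, 556 and 256 CPM in IR, again without overlap, but was not called (log2 fold change 1.78, adjusted p = 0.0772, SE 0.45). Gclm, the modifier subunit that pairs with Gclc, was not called either (log2 fold change 0.86, adjusted p = 0.369, SE 0.36). Of the 13 tested genes of glutathione synthesis and recycling, 1 rose, 0 fell and 6 lay wholly above sham (46.2%, against 8.84% of all tested genes).

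Glutathione transferases differed among themselves, with log2 fold changes from −1.07 to 2.98. Gsta4, which conjugates the lipid peroxidation product hydroxynonenal, stood at 37.1, 26.8 and 35.4 CPM in sham and 286, 419 and 88.1 CPM in IR, a log2 fold change of 2.98 (adjusted p = 0.0332, SE 0.60). Gsto1, an omega-class transferase and thiol reductase, had 179.6, 179 and 283 CPM in sham and 878, 1199 and 431 CPM in IR (log2 fold change 1.96, adjusted p = 0.0474, SE 0.43). For both genes the highest sham library lay below IR replicate 3. Gsta3 had a log2 fold change of 0.89 (adjusted p = 0.353, SE 0.36) and was not called. Only 6 of the 14 tested transferases had a positive log2 fold change, and the median was −0.06. Of the 14, 2 were called higher, 4 lay wholly above sham and 1 lay wholly below. Those shares were 28.6% and 7.14%, against 8.84% and 8.4% of all tested genes. The members named here are therefore not typical of the list. Gsta1 and Gsta2, looked up after their values were seen, failed the filter, with 0, 0 and 0 counts in sham and 12, 17 and 3 in IR for Gsta1 and 0, 0 and 2 against 8, 13 and 2 for Gsta2. Alpha-class transferases are close copies, so reads may have been split among them.

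Peroxide-reducing enzymes rose as single genes. Srxn1, which reduces oxidised peroxiredoxins, stood at 17.6, 41.9 and 34.9 CPM in sham and 134, 111 and 62.4 CPM in IR (log2 fold change 1.69, adjusted p = 0.0265, SE 0.31). Prdx6, a peroxiredoxin that acts on phospholipid peroxides, showed the smallest fold of the 36 called genes, 85.1, 86.1 and 98.0 CPM in sham and 171, 185 and 114 CPM in IR (log2 fold change 0.80, adjusted p = 0.0467, SE 0.17). Gpx2, the glutathione peroxidase of epithelia, had 128, 101 and 124 CPM in sham and 242, 299.5 and 187 CPM in IR (log2 fold change 1.04, adjusted p = 0.0474, SE 0.23). These were 2 of 13 tested genes of the thioredoxin and peroxiredoxin system and 1 of 10 tested dismutases, catalase and peroxidases. Cat, the peroxisomal catalase, had 124, 143 and 162 CPM in sham and 588, 471 and 240.1 CPM in IR and missed the threshold (log2 fold change 1.6, adjusted p = 0.0630, SE 0.38), and Msrb1, a methionine sulfoxide reductase, lay below sham in all IR libraries (log2 fold change −1.04, adjusted p = 0.110, SE 0.28).

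NADPH supply and detoxification completed the called group. G6pdx, which opens the pentose phosphate pathway, stood at 29, 26.8 and 26.7 CPM in sham and 60.1, 83.1 and 46.4 CPM in IR (log2 fold change 1.18, adjusted p = 0.0287, SE 0.22). The next NADPH sources, Me1 (log2 fold change 1.10, adjusted p = 0.0772, SE 0.27) and Pgd (log2 fold change 0.92, adjusted p = 0.145, SE 0.26), lay above sham in each IR library and were not called. Cyp1b1, a cytochrome P450 that oxidises aromatic compounds, had 67.5, 69.3 and 82.1 CPM in sham and 223, 231 and 146 CPM in IR (log2 fold change 1.45, adjusted p = 0.0420, SE 0.30). Abcc4, an exporter of cyclic nucleotides and organic anions, had 6.75, 11.6 and 12.3 CPM in sham and 45.2, 44.4 and 17.8 CPM in IR (log2 fold change 1.76, adjusted p = 0.0474, SE 0.39). In the quinone, carbonyl and xenobiotic group 22 of 24 tested genes had a positive log2 fold change, 14 lay wholly above sham, and the median was 0.60.

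Transcripts of NRF2 and its regulators were not among the called genes. Nfe2l2, which encodes NRF2, stood at 196, 196 and 169.9 CPM in sham and 233, 256 and 214 CPM in IR (log2 fold change 0.32, adjusted p = 0.503, SE 0.17), a little above sham in each IR library. With edgeR 0 of the 8 tested regulators were called, 0 had an unadjusted p under 0.05, and DESeq2 called 0. Sqstm1 (log2 fold change 0.47, adjusted p = 0.492, SE 0.24) and the small MAF Mafg (log2 fold change 0.36, adjusted p = 0.459, SE 0.17) overlapped between the groups. Without IR replicate 3 the antioxidant calls were 15 higher and 1 lower, Msrb1, and without any other library 0. With a replicate block they were 0 as well. Prdx6 and Abcc4 also lost their calls with the compared groups alone. Over the alternatives the adjusted p of the called antioxidant genes went up to 0.364, for Gpx2 and Gsto1.

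**Figure D2:**
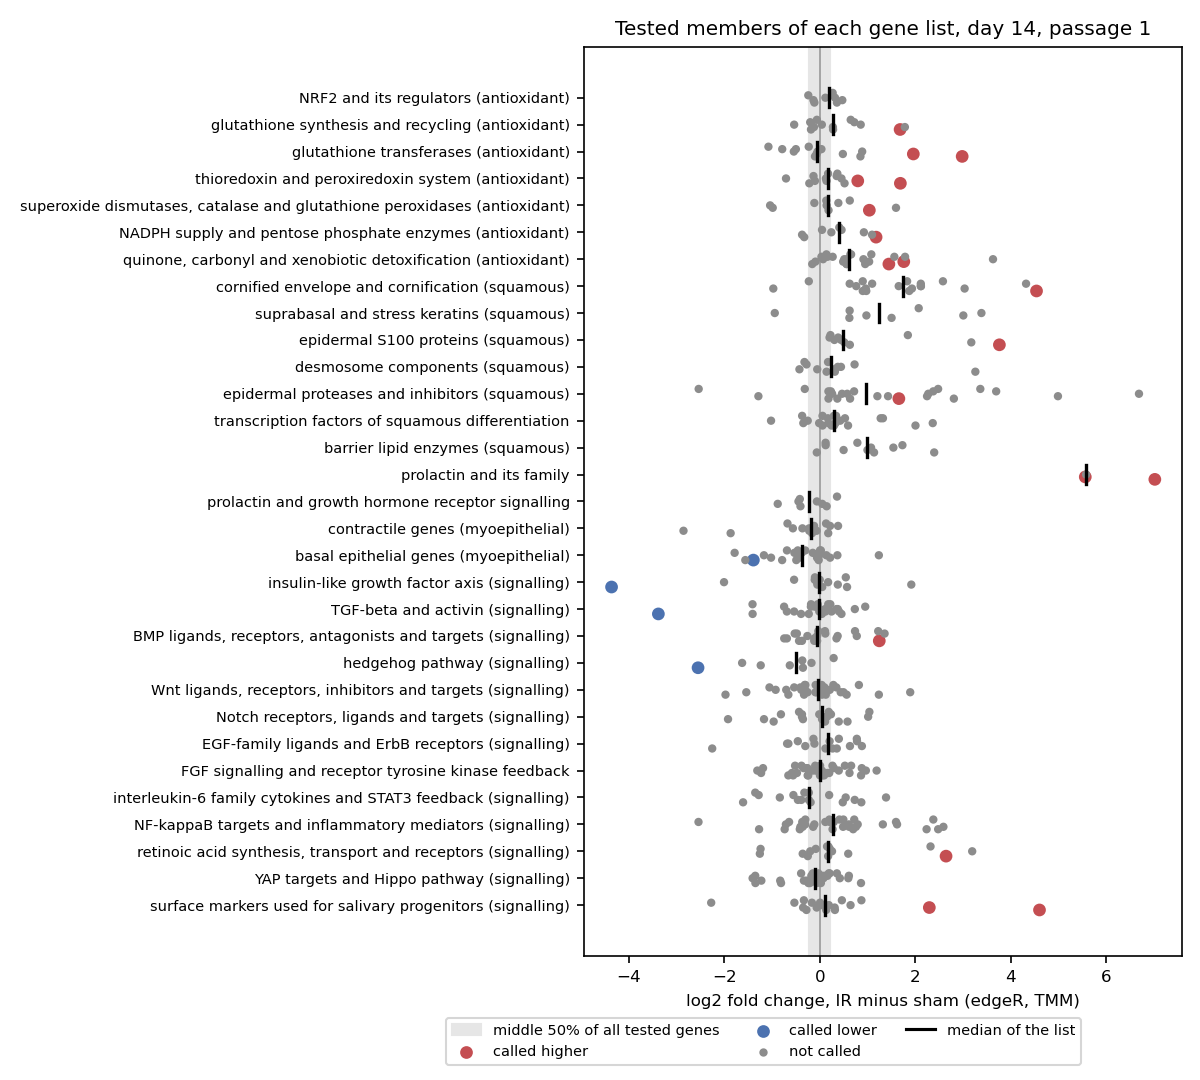
Log2 fold change (IR minus sham) of each tested member of 31 gene lists; red and blue points were called higher and lower, grey points were not called, the black tick is the list's median and the band is the interquartile range of all tested genes (−0.235 to 0.21). The ticks of the cornified envelope (1.74), squamous keratin (1.24) and prolactin family (5.58) lists lie farthest to the right, and in the first pair most members are grey.

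Squamous genes had a positive log2 fold change in 91 of 107 tested members (5162 of 10563 for all tested genes), while few passed the test. Of 191 listed genes, 25 had no count in the 6 libraries. Of those that passed the filter 3 rose (Tmprss4, S100a8 and Cdsn) and 0 fell, where 0.293% and 0.0473% of all tested genes did. Wholly above sham lay 40 (37.4%) and wholly below 7 (6.5%), against 8.84% and 8.4% of all tested genes. Unadjusted p was under 0.05 for 46 higher and 4 lower (5.5% and 5.48% of all tested genes), and DESeq2 called 17 higher and 1 lower. The median log2 fold change was 0.63, beside −0.01 for all tested genes. It depended on the filter, at 0.44 over 84 genes with the compared groups alone and 0.99 over 171 with no filter. For the cornified envelope list the compared groups alone gave a median of 1.30 over 12 genes. Here too a gene high in 1 group alone can pass the filter because of that group. These counts describe the members tested and no more. In sum the listed genes came to 13151, 12365 and 13073 CPM in sham and 18984, 21791 and 14940.0 CPM in IR.

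The cornified envelope list had the highest median of the squamous groups (1.74, 20 tested, 1 called). Cdsn, the corneodesmosome adhesion protein, stood at 0, 1.16 and 1.03 CPM in sham and 21.6, 35.9 and 3.28 CPM in IR, a log2 fold change of 4.54 (adjusted p = 0.0460, SE 0.96). Its sham level rests on 4 counts over 3 libraries, and IR replicate 3 was close to it. Sbsn, a secreted protein of the upper epidermis, had 32.4, 18.0 and 24.1 CPM in sham and 124, 130.4 and 32.4 CPM in IR, so that IR replicate 3 equalled the highest sham library, and it was not called (log2 fold change 1.93, adjusted p = 0.0611, SE 0.45). Lypd3, a surface protein of suprabasal cells, was similar (log2 fold change 2.12, adjusted p = 0.106, SE 0.57). Late envelope genes were barely read: Rptn, looked up after its values were seen, had 0, 0 and 1 counts in sham and 24, 5 and 0 in IR, and Flg had 8 counts in all.

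Of 8 tested keratins of stressed and suprabasal epithelium 4 lay wholly above sham and 1 wholly below, without a call. Krt6a stood at 660.4, 680.3 and 741 CPM in sham and 1916, 2883 and 1114 CPM in IR (log2 fold change 1.5, adjusted p = 0.155, SE 0.44). Krt16, its partner in activated keratinocytes, had 17.6, 30.3 and 26.7 CPM in sham and 197, 368 and 49.2 CPM in IR (log2 fold change 3.01, adjusted p = 0.166, SE 0.89), and Krt6b had 10.8, 18.6 and 40.0 CPM in sham and 241, 471 and 42.7 CPM in IR (log2 fold change 3.39, adjusted p = 0.238, SE 1.13). In each case IR replicate 2 was highest and IR replicate 3 was nearest to sham, so the IR group was widely spread. With edgeR 0 of the 8 tested keratins were called, 4 had an unadjusted p under 0.05, all higher, and DESeq2 called 1. The ends of the Krt6a and Krt6b transcripts were 62.4% identical over their last 300 bases. The calprotectin subunit S100a8 stood at 2.03, 2.33 and 4.11 CPM in sham and 35.6, 74.6 and 15.9 CPM in IR, a log2 fold change of 3.76 (adjusted p = 0.0265, SE 0.70). Its partner S100a9, the other calprotectin subunit, had 1.35, 0.582 and 1.54 CPM in sham and 11.5, 21.7 and 2.81 CPM in IR and was not called (log2 fold change 3.17, adjusted p = 0.192, SE 0.99). The S100 list had 10 of 10 tested members with a positive log2 fold change and 6 wholly above sham (60%, against 8.84% of all tested genes).

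The list of epidermal proteases and their inhibitors held the squamous call with the lowest adjusted p. It was Tmprss4, which counts as squamous here by list membership alone. Tmprss4, a membrane-anchored serine protease, stood at 41.2, 34.3 and 43.6 CPM in sham and 176, 132 and 69.4 CPM in IR, with a log2 fold change of 1.66 (adjusted p = 0.0110, SE 0.27). The kallikrein Klk8 (log2 fold change 2.25, adjusted p = 0.0534, SE 0.51) and the inhibitor Serpinb2 (log2 fold change 2.27, adjusted p = 0.0553, SE 0.52) lay above sham in each IR library and missed the threshold. Klk7, which cleaves corneodesmosin, and Spink5, which inhibits it, were looked up after their values were seen. Klk7 had 0, 0 and 0 CPM in sham and 5.77, 13.2 and 0.469 CPM in IR (adjusted p = 0.246), and Spink5 had 37.1, 32.6 and 50.8 CPM in sham and 399, 743 and 115 CPM in IR (log2 fold change 3.36, adjusted p = 0.0772, SE 0.83). Of 24 tested genes of this group 12 lay wholly above sham (50%, against 8.84% of all tested genes). Wholly below lay 1 (4.17%, against 8.4%). A positive log2 fold change was seen for 21, and the values ran from −2.54 to 6.69. The members named here are all from the higher side.

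Transcription factors of the programme lay on both sides of sham, with no call among 22 tested (DESeq2 called 2 higher and 1 lower, and 4 were higher and 3 lower unadjusted). Grhl3, which drives barrier genes, had 2.03, 4.66 and 3.59 CPM in sham and 16.8, 21.7 and 5.63 CPM in IR (log2 fold change 2.01, adjusted p = 0.0772, SE 0.50), and Prdm1, which marks terminal differentiation, had 2.70, 3.49 and 3.08 CPM in sham and 16.8, 29.3 and 5.16 CPM in IR (log2 fold change 2.37, adjusted p = 0.0772, SE 0.60). Trp63, the p63 gene of basal cells, had 79.0, 86.7 and 91.4 CPM in sham and 26.9, 41.6 and 58.1 CPM in IR (log2 fold change −1.02, adjusted p = 0.0854, SE 0.26). The first pair lay wholly above sham and Trp63 wholly below, and none was called. Of the barrier lipid genes, the ceramide transporter Abca12 (log2 fold change 2.40, adjusted p = 0.0711, SE 0.58) and the elongase Elovl7 (log2 fold change 1.00, adjusted p = 0.0772, SE 0.25) lay above sham without a call. Desmosome genes had a median of 0.24, and Dsg2, the desmoglein of simple and basal epithelium, lay wholly below sham (log2 fold change −0.43, adjusted p = 0.328, SE 0.17). Without IR replicate 3 the squamous calls were 16 higher and 1 lower, Trp63, and without any other library 0 (adjusted p up to 0.291). With a replicate block they were 0 as well.

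Prolactin family transcripts were nearly absent from sham organoids and present in IR organoids. Of 26 listed members, 19 had no count in the 6 libraries, 4 had 1 to 7 counts, all of them in IR libraries, and 3 were tested. Prl2c2 stood at 0, 0 and 0.513 CPM in sham and 26.4, 67.1 and 8.91 CPM in IR, with 1 count in sham and 145 in IR, a ratio of 142 (95% interval 25 to 5631) for counting error, and a log2 fold change of 7.02 (adjusted p = 0.00938, SE 1.12). Prl2c3 had 0, 0 and 0.513 CPM in sham and 10.6, 26.5 and 1.41 CPM in IR, or 1 count against 53, a ratio of 51.8 (95% interval 8.90 to 2082) and a log2 fold change of 5.56 (adjusted p = 0.0376, SE 1.14). Prl2c5 had 0, 0.582 and 0.513 CPM in sham and 13.9, 47.2 and 7.03 CPM in IR, or 2 counts against 94, and was not called (log2 fold change 5.58, adjusted p = 0.0772, SE 1.39). IR replicate 2 was highest and replicate 3 lowest for all 3, and no IR library overlapped sham. The fitted fold changes depend on how near 0 the sham counts are.

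The 3 Prl2c genes cannot be fully separated by 3′ reads. The last 300 bases of their transcripts were 96.7% identical between Prl2c2 and Prl2c3, 91.9% between Prl2c2 and Prl2c5 and 91.5% between Prl2c3 and Prl2c5, so reads may have been shared or split among them. The promoters of Prl2c3 and Prl2c5, printed because both genes lay above sham in the same libraries, were 96% identical over 250 bases before the start, with 10 differing positions of 251 aligned. They are RefSeq sequences of GRCm38.p6 at chr13:12800080-12800329 (minus strand, Prl2c3) and chr13:13182466-13182715 (plus strand, Prl2c5), read 5′ to 3′, and capitals mark bases that differ or have no partner.
Prl2c3: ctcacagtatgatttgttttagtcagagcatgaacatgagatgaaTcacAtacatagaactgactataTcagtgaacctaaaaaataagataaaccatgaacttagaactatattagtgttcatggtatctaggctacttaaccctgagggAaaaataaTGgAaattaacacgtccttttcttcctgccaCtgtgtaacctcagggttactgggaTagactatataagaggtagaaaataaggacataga
Prl2c5: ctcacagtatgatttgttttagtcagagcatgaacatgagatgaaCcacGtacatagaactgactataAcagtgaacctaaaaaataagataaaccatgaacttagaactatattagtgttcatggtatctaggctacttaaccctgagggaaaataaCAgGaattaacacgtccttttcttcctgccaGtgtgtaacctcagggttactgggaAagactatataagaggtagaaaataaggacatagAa
Genes of prolactin and growth hormone reception held no call. Prlr, the prolactin receptor, stood at 24.3, 33.8 and 32.9 CPM in sham and 26, 18.0 and 22 CPM in IR (log2 fold change −0.45, adjusted p = 0.722, SE 0.34). Of the 8 tested receptor and signalling genes edgeR called 0, DESeq2 called 0, and 0 had an unadjusted p under 0.05, with log2 fold changes from −0.88 to 0.36. At passage 2 of the same day sham organoids themselves carried Prl2c2 (5.94 ± 4.94 CPM, SD, n = 3), and IR organoids had 12.8 ± 3.08 CPM. The calls of Prl2c2 and Prl2c3 were lost without any of the sham libraries or IR replicate 2. Prl2c3 also lost its call without IR replicate 1 and with a replicate block (adjusted p up to 0.285).

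Basal and myoepithelial genes were lower in several members, of which 1 was called. Of 50 listed genes 39 were tested, with 0 called higher and 1 lower. Of these 39, 3 lay wholly above sham (7.7%) and 15 wholly below (38.5%), against 8.84% and 8.4% of all tested genes. DESeq2 called 0 higher and 4 lower, and the median was −0.22. The call was Bnc2, a zinc finger protein that counts as basal here by list membership alone. Bnc2 stood at 22.3, 17.5 and 25.7 CPM in sham and 9.14, 7.56 and 7.97 CPM in IR (log2 fold change −1.39, adjusted p = 0.0468, SE 0.30). Its 3 IR libraries lay close together. Trp63 has its values above. Snai2, a repressor tied to the basal state, had 85.8, 148 and 113 CPM in sham and 39.0, 42.5 and 71.7 CPM in IR and was not called (log2 fold change −1.17, adjusted p = 0.0903, SE 0.30). The basal keratins Krt5 (log2 fold change 0.01, adjusted p = 0.999, SE 0.43) and Krt14 (log2 fold change 0.37, adjusted p = 0.780, SE 0.33) overlapped between groups, and the summed level of the 25 basal genes was 9017, 6669.8 and 7202 CPM in sham and 6912, 8536 and 7184 CPM in IR, which overlap. In bulk libraries fewer cells of a type and less RNA per cell cannot be told apart.

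Of 14 tested contractile genes 2 lay wholly above sham (14.3%) and 4 wholly below (28.6%), against 8.84% and 8.4% of all tested genes. Several that define myoepithelium had low levels in both arms. Acta2, smooth muscle actin, had 11.5, 11.1 and 15.4 CPM in sham and 0, 1.89 and 3.28 CPM in IR (log2 fold change −2.85, adjusted p = 0.160, SE 0.84), and Mylk, which activates myosin light chain, had 19.6, 11.1 and 10.8 CPM in sham and 4.33, 1.89 and 4.22 CPM in IR (log2 fold change −1.87, adjusted p = 0.0614, SE 0.43). Both lay wholly below sham in IR, and neither was called. Tagln, Myl9, Myh11 and Cnn1 were looked up after their values were seen and failed the filter. Their counts over the 3 sham and then the 3 IR libraries were 3, 3, 5 and 0, 1, 1 for Tagln, 2, 7, 3 and 0, 0, 0 for Myl9, 4, 1, 3 and 0, 0, 1 for Myh11, and 1, 0, 0 and 0, 0, 1 for Cnn1. With edgeR 0 of 14 tested contractile genes were called, 2 had an unadjusted p under 0.05, both lower, and DESeq2 called 1 lower. Their summed level was 2878, 2871 and 2876 CPM in sham and 2928, 2972 and 2767 CPM in IR. The call of Bnc2 was lost without any 1 of the 6 libraries, with total counts as the scaling and with a replicate block (adjusted p up to 0.291).

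**Figure D3:**
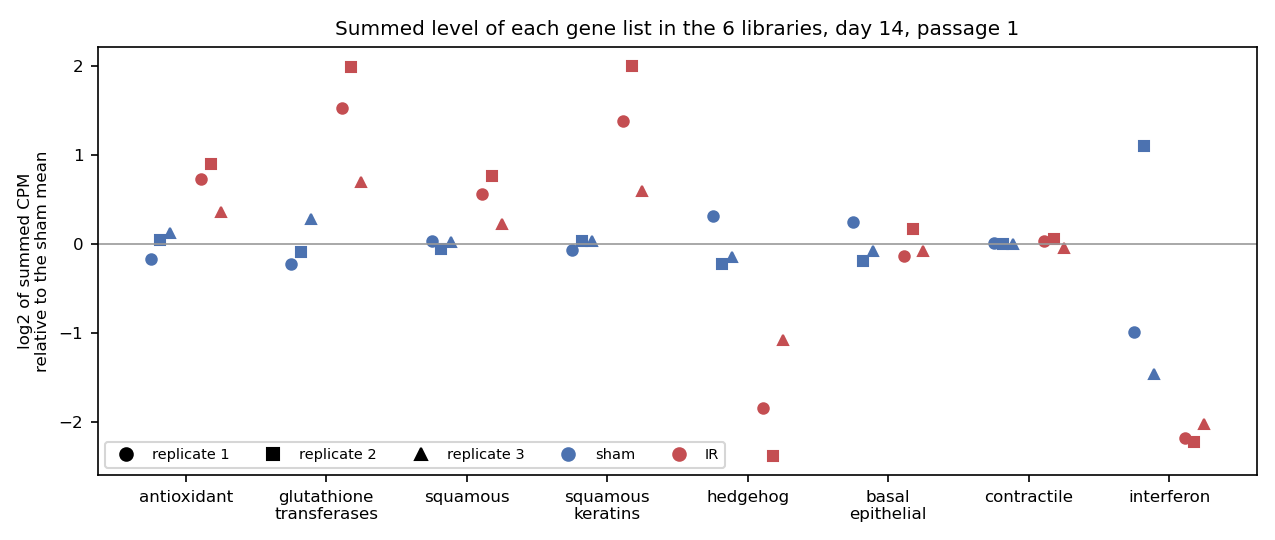
Summed CPM of 8 gene lists in each of the 6 libraries, as log2 relative to the sham mean; marker shape gives the replicate and colour the group. Glutathione transferases (442, 486 and 628 CPM in sham) lie above sham in all IR libraries with replicate 3 lowest, and sham replicate 2 stands alone for interferon genes. The hedgehog sum lies below, and Gas1 alone held 276, 175 and 196 of its 459, 315 and 334 CPM in sham. The contractile sum does not separate. Acta2 and Mylk, with sham means of 12.6 and 13.8 CPM, weigh little in its 2871 to 2878 CPM.

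Among signalling genes the calls lower in IR were 3 proteins that bind ligands outside the cell. Igfbp5, a binding protein for insulin-like growth factors, stood at 305, 75.7 and 124 CPM in sham and 0.962, 3.78 and 17.8 CPM in IR (log2 fold change −4.36, adjusted p = 0.0468, SE 0.94). Its sham libraries spanned a wide range, led by replicate 1, and all IR libraries lay far below them. Igfbp4 had 47.9, 74.5 and 34.4 CPM in sham and 12, 11.3 and 15 CPM in IR (log2 fold change −2.0, adjusted p = 0.166, SE 0.60) and Igfbp3 4.73, 11.6 and 7.19 CPM in sham and 29.8, 45.4 and 17.8 CPM in IR (log2 fold change 1.92, adjusted p = 0.164, SE 0.57), in opposite directions and not called. The median over all 14 tested genes of the axis, these 3 included, was −0.02. Tgfbr3, the betaglycan co-receptor for TGF-beta and inhibin, stood at 8.10, 12.8 and 9.75 CPM in sham and 0.481, 0 and 1.88 CPM in IR (log2 fold change −3.38, adjusted p = 0.0474, SE 0.74), from 53 counts in sham to 5 in IR. It was the 1 gene called of 28 tested TGF-beta and activin genes. Smad3 (log2 fold change 0.74, adjusted p = 0.246, SE 0.25) and the activin receptor Acvr2a (log2 fold change −0.69, adjusted p = 0.159, SE 0.20) separated the groups without a call.

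The hedgehog co-receptors Gas1 and Boc lay below sham in every IR library, and Gas1 was called. Gas1, a co-receptor that presents the ligand to Patched, stood at 276, 175 and 196 CPM in sham and 22.6, 12.3 and 70.3 CPM in IR (log2 fold change −2.55, adjusted p = 0.0296, SE 0.50). Boc, another co-receptor, had 97.9, 63.4 and 67.8 CPM in sham and 17.3, 10.4 and 42.7 CPM in IR (log2 fold change −1.63, adjusted p = 0.273, SE 0.57), and the transducer Smo had 29.7, 11.6 and 9.24 CPM in sham and 6.73, 6.61 and 7.50 CPM in IR (log2 fold change −1.24, adjusted p = 0.166, SE 0.37), both wholly below sham and not called. Cdon, a further co-receptor, overlapped (log2 fold change 0.29), as did the receptor and target Ptch1 (−0.37); both were chosen after their values were seen. Gli1, the usual transcriptional readout, had 5 counts over the 6 libraries, so it could not be compared at this depth. Of the 8 tested genes 1 fell, 3 lay wholly below sham, and the sum was 459, 315 and 334 CPM in sham and 102, 70.9 and 175 CPM in IR. IR replicate 3 was again nearest to sham. The calls of Gas1, Igfbp5 and Tgfbr3 were lost without any library other than IR replicate 3 (adjusted p up to 0.30). Those of Igfbp5 and Tgfbr3 were also lost with a replicate block, and that of Tgfbr3 with total counts as the scaling.

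Genes called higher in signalling lists were Aldh1a3, Id2, Psca and Procr. Aldh1a3, which makes retinoic acid from retinaldehyde, stood at 33.1, 42.5 and 49.3 CPM in sham and 288, 395 and 109 CPM in IR (log2 fold change 2.65, adjusted p = 0.00207, SE 0.36). It was the 1 call among 15 tested retinoic acid genes. The retinoic acid-binding protein Crabp2 overlapped between the groups (log2 fold change 3.19, adjusted p = 0.566, SE 1.82). Id2, a BMP-responsive inhibitor of helix-loop-helix factors, had 165, 206 and 206 CPM in sham and 489.5, 484 and 399 CPM in IR (log2 fold change 1.25, adjusted p = 0.0296, SE 0.24), with the 3 IR libraries close together. Bmp4, the ligand that the series title names, had 4.73, 2.33 and 7.70 CPM in sham and 5.77, 6.61 and 12.2 CPM in IR, so the groups overlapped (log2 fold change 0.74, adjusted p = 0.636, SE 0.48), and Bmp2 was not tested, with 2, 8 and 9 counts in sham and 13, 10 and 8 in IR. Of 21 tested BMP genes 1 rose and 0 fell.

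Among surface proteins used to mark salivary progenitors 2 of 19 tested rose and 0 fell, where 0.293% and 0.0473% of all tested genes did. Psca, a GPI-anchored antigen, stood at 7.43, 0.582 and 3.59 CPM in sham and 101, 164 and 16.4 CPM in IR (log2 fold change 4.60, adjusted p = 0.0265, SE 0.86). Its IR libraries spanned a wide range while staying above sham. Procr, the endothelial protein C receptor that also marks stem cells in other epithelia, had 2.70, 6.40 and 6.67 CPM in sham and 29.3, 40.6 and 12.7 CPM in IR (log2 fold change 2.30, adjusted p = 0.0474, SE 0.51). Cd44, the hyaluronan receptor, had 301, 455 and 482 CPM in sham and 586, 702 and 652 CPM in IR and was not called (log2 fold change 0.65, adjusted p = 0.343, SE 0.26). The calls of Id2, Psca and Procr were lost without any library other than IR replicate 3 and with a replicate block (adjusted p up to 0.333). That of Aldh1a3 was lost without sham replicate 1 alone.

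In the main fit edgeR called no gene of the Wnt, Notch, EGF, FGF, interleukin-6, NF-kappaB or YAP lists. With no filter it called 8 higher and 1 lower for NF-kappaB, 3 and 2 for Wnt and 3 and 3 for FGF. In the same fit interleukin-6 and YAP had 1 and 4 each, EGF 2 and 1, and Notch 1 and 2. Without IR replicate 3 it called 2 and 0 for NF-kappaB and 1 and 2 for Wnt. FGF had 1 and 1 there, and EGF 0 and 1. Total counts gave 1 Wnt gene higher, and the compared groups alone 1 Wnt and 1 FGF gene lower. Wnt had 34 tested members with 3 higher and 5 lower at an unadjusted p under 0.05, and DESeq2 called 1 higher and 1 lower. The Wnt inhibitor Sfrp1 had 132, 84.4 and 99.1 CPM in sham and 14.9, 16.1 and 46.4 CPM in IR (log2 fold change −1.97, adjusted p = 0.0672, SE 0.47) and the ligand Wnt5a 3.38, 2.33 and 4.11 CPM in sham and 12.5, 19.8 and 6.56 CPM in IR (log2 fold change 1.89, adjusted p = 0.0711, SE 0.46), which separated the groups in opposite directions. FGF and receptor tyrosine kinase feedback had 37 tested, 5 higher and 6 lower unadjusted and 1 lower with DESeq2, with Spred1, an inhibitor of RAS signalling, at 115, 125 and 124 CPM in sham and 64.4, 69.9 and 95.6 CPM in IR (log2 fold change −0.66, adjusted p = 0.0611, SE 0.15). For NF-kappaB targets (34 tested, 9 higher and 1 lower unadjusted, 1 higher with DESeq2) the chemokine Cxcl3 had 2.70, 2.91 and 1.03 CPM in sham and 6.73, 22.7 and 4.69 CPM in IR (log2 fold change 2.24, adjusted p = 0.104, SE 0.60) and Il1a 3.38, 6.40 and 2.05 CPM in sham and 20.7, 52.9 and 2.81 CPM in IR (log2 fold change 2.59, adjusted p = 0.146, SE 0.74). DESeq2 called 0 in the others. Notch (19 tested) had 3 unadjusted in each direction, and its target Hey1 lay below sham (log2 fold change −1.92, adjusted p = 0.248, SE 0.66) while Notch3 lay above (log2 fold change 0.58, adjusted p = 0.133, SE 0.16). EGF genes (16 tested) had 2 higher and 3 lower, interleukin-6 family genes (17) 1 and 3 with Lifr wholly below sham (log2 fold change −1.6, adjusted p = 0.264, SE 0.56), and YAP and Hippo genes (32) 1 and 1.

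Lists of radiation and immune responses held no call in the main edgeR fit. Of 27 tested p53 targets edgeR called 0 and DESeq2 1, with 4 higher and 2 lower unadjusted, and Cdkn1a, the cyclin-dependent kinase inhibitor p21, had 229, 240.3 and 188 CPM in sham and 461, 531 and 273 CPM in IR (log2 fold change 0.94, adjusted p = 0.145, SE 0.27). Proliferation genes (34 tested) had 0 called by either tool and 0 at an unadjusted p under 0.05, with a median of −0.04. Interferon response genes had the lowest median of all lists, −2.72 over 52 tested, with edgeR calling 0 and DESeq2 1 lower, 33 lower unadjusted and 29 wholly below sham. With no filter on low counts edgeR called 44 of 56 interferon genes and 4 of 24 MHC class I genes, all lower. With the compared groups alone it called 1 of 28 interferon genes, also lower. The sum of the interferon genes was 806, 3421 and 583 CPM in sham and 352, 341 and 394 CPM in IR. Sham replicate 2 was far above the other libraries, and without it the interferon median was −1.01. Bst2, an interferon-induced surface protein, had 46.6, 189 and 31.3 CPM in sham and 9.14, 15.1 and 13.1 CPM in IR (log2 fold change −2.87, adjusted p = 0.167, SE 0.86). MHC class I genes had a median of −0.93 over 17 tested, with 0 called by either tool, 5 lower unadjusted and a median of −0.42 without sham replicate 2. The part of sham replicate 2 in other results was not tested beyond leaving it out, after which 1 of the 36 calls was left.

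Markers of secretory cells split. Car6, a carbonic anhydrase secreted into saliva, stood at 13.5, 5.24 and 11.3 CPM in sham and 76.0, 122 and 26.3 CPM in IR (log2 fold change 2.87, adjusted p = 0.0265, SE 0.51). It was the 1 call among 8 tested acinar genes. Others of the list, named after their values were seen, went both ways: the mucin-like Mucl2 had 19.6, 5.82 and 18.0 CPM in sham and 78.4, 146 and 30.0 CPM in IR (log2 fold change 2.52, adjusted p = 0.0752, SE 0.59), and the water channel Aqp5 had 85.1, 34.3 and 42.1 CPM in sham and 20.2, 25.5 and 27.2 CPM in IR (log2 fold change −1.14, adjusted p = 0.322, SE 0.44). The acinar transcription factor Bhlha15 had 3 counts over the 6 libraries and the amylase Amy1 had 3. The summed acinar level was 564, 407 and 539 CPM in sham and 314, 723 and 415 CPM in IR, which overlap, and the summed duct level was 4679.9, 3706 and 4143 CPM and 4939.5, 4172 and 4096 CPM. With edgeR 0 of 17 tested duct genes were called, 1 higher and 2 lower unadjusted, and DESeq2 called 1 lower.

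Other cell types were checked by their lists. The 19 fibroblast markers summed to 945, 663 and 668 CPM in sham and 95.7, 46.3 and 207 CPM in IR, with Postn, periostin, the main part in sham (896, 621 and 636 CPM in sham and 66.4, 23.6 and 186 CPM in IR, log2 fold change −2.93, adjusted p = 0.187, SE 0.90), while 7 of the 19 were at 0 in the 6 libraries. The 21 leukocyte markers summed to 13.5, 18.0 and 15.9 CPM and 59.1, 31.2 and 22 CPM with 9 at 0, and the 12 endothelial markers to 25.7, 45.4 and 37.5 CPM and 32.7, 44.4 and 41.7 CPM with 3 at 0. Nerve and Schwann cell markers summed to 115, 115 and 118 CPM and 178, 146 and 146 CPM. The beta-tubulin Tubb3, best known from neurons, was called, with 0 counts in sham and 5.77, 9.45 and 2.81 CPM in IR (28 counts), at least 9.12-fold higher against a floor of 3 counts over the sham group (adjusted p = 0.0296). The Schwann cell gene S100b had 1 count over the 6 libraries. Adipocyte markers were tested for 1 gene, and striated muscle and red cell markers for 0.

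The remaining calls fell outside the lists. Slc48a1, a heme transporter of lysosomes, stood at 44.6, 55.3 and 64.2 CPM in sham and 233, 199 and 105 CPM in IR (log2 fold change 1.70, adjusted p = 0.00938, SE 0.27) and was the second of the 36 by p. Vnn1, a pantetheinase that yields cysteamine, had 15.5, 29.7 and 26.2 CPM in sham and 136, 126 and 67.0 CPM in IR (log2 fold change 2.18, adjusted p = 0.0296, SE 0.43). Mal, a raft proteolipid of apical membranes, had 54.7, 56.5 and 54.4 CPM in sham and 266, 327 and 98.9 CPM in IR, with sham libraries nearly equal (log2 fold change 2.05, adjusted p = 0.0455, SE 0.43). On the log2 scale the membrane protein Dynap rose by 2.47 (adjusted p = 0.0265, SE 0.45), the acyl-CoA synthetase Acsbg1 by 2.41 (adjusted p = 0.0332, SE 0.49), and the cyclooxygenase Ptgs1 by 2.08 (adjusted p = 0.0420, SE 0.43). On the same scale the phosphate transporter Slc20a1 rose by 1.15 (adjusted p = 0.0296, SE 0.23), the actin-binding Ablim1 by 1.47 (adjusted p = 0.0460, SE 0.31) and the MAX partner Mxd1 by 1.43 (adjusted p = 0.0474, SE 0.32). The lysosomal Gpr137b (log2 fold change 2.55, adjusted p = 0.0474, SE 0.56) and the receptor Tnfrsf26 (log2 fold change 1.37, adjusted p = 0.0474, SE 0.30) were also called higher. Pdzd2, a PDZ domain protein, was called lower, 54.7, 20.9 and 22.6 CPM in sham and 5.29, 9.45 and 15 CPM in IR (log2 fold change −1.69, adjusted p = 0.0468, SE 0.36). All of these lost their calls without any library other than IR replicate 3, except Slc48a1 without sham replicate 3. With the replicate block all of these genes but Vnn1 lost their calls. Mxd1 kept its call in 4 of 14 alternatives, and lost it also with RLE scaling, the stricter filter, the compared groups alone and without ribosomal RNA genes. Slc20a1, Acsbg1, Tnfrsf26 and Pdzd2 lost theirs with the compared groups alone too. Over the alternatives the adjusted p of the genes outside the lists went up to 0.311, for Mxd1 and Gpr137b.

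**Figure D4:**
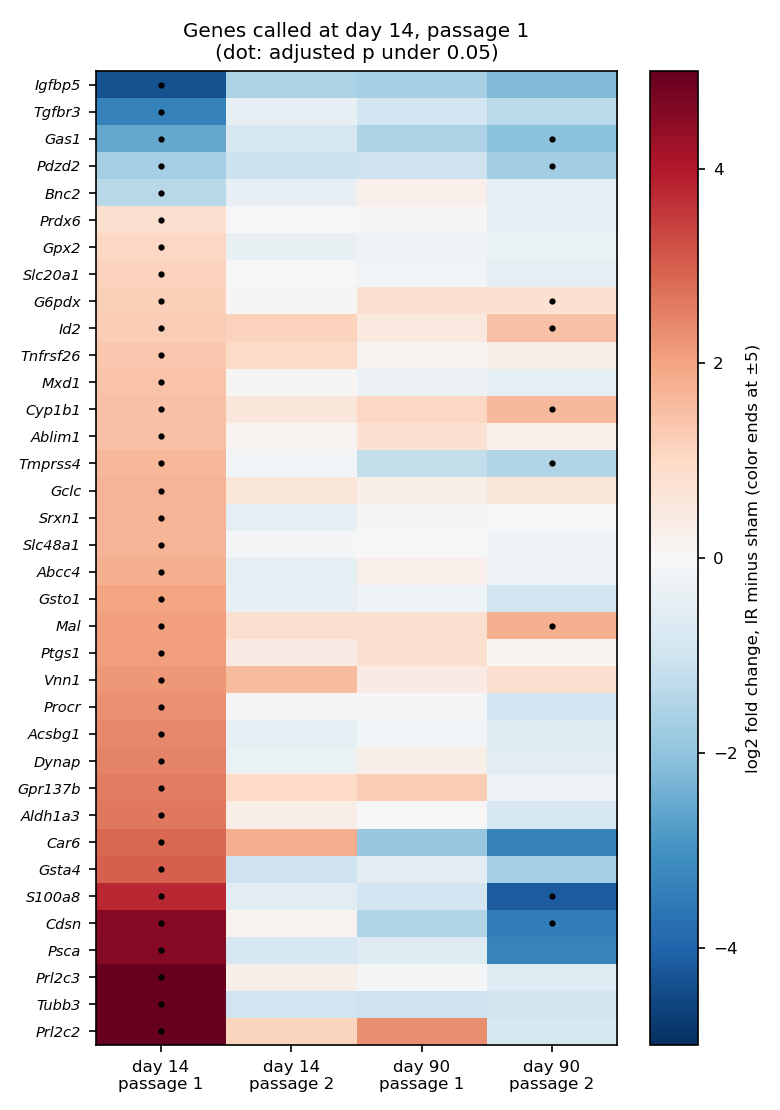
Log2 fold change (IR minus sham, color scale ending at ±5) of the 36 genes called at day 14 and passage 1, in each of the 4 comparisons of the series; a dot marks an adjusted p under 0.05. The column of day 14 and passage 1 is filled by choice, the next pair holds no dot, and of the 9 dots in the last column 3 stand on cells of the opposite color (Tmprss4, S100a8 and Cdsn).

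The 36 genes were followed in the other 3 comparisons of the series, which use other libraries. The labels do not say whether passage 2 was grown from the same cultures. Their sign was the same for 22 at day 14 and passage 2, 21 at day 90 and passage 1, and 15 at day 90 and passage 2. None was called in the first 2 of these. At day 90 and passage 2, where 520 genes were called, 9 of the 36 were among them. Of these 9, 6 kept their direction: Gas1 (−2.07, adjusted p = 0.0127), Pdzd2 (−1.73), G6pdx (0.77), Id2 (1.48), Cyp1b1 (1.61) and Mal (1.77). The squamous list members S100a8 (−4.14), Cdsn (−3.47) and Tmprss4 (−1.52, adjusted p = 0.00175) were called in the opposite direction there.

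By list medians, antioxidant genes centred near 0 elsewhere and squamous genes below it. The antioxidant median of 0.28 stood beside −0.01 at day 14 and passage 2, 0.02 at day 90 and passage 1, and −0.03 at day 90 and passage 2. The squamous median of 0.63 stood beside −0.19, −0.34 and −0.75 in the same order. The keratin Krt6b gives an example: 23.2 ± 15.1 CPM in sham and 252 ± 215 CPM in IR at day 14 and passage 1, but 234 ± 118 and 41 ± 46.7 CPM at passage 2 (SD, n = 3). Gsta4 behaved alike, with 33.1 ± 5.56 and 264 ± 166 CPM at passage 1 and 139 ± 38.3 and 67.4 ± 2.28 CPM at passage 2. The sham level at passage 2 was thus between the sham and IR levels of passage 1 for Gsta4. Catalase kept its direction at day 90 (1.08 at passage 1 and 1.46 at passage 2, adjusted p = 0.0255 in the latter). The calls of single members differed from the medians. At day 90 and passage 2, where 520 of 10563 tested genes were called, 8 of 91 antioxidant genes were called higher and 0 lower. Of 107 squamous genes 3 were called higher and 29 lower there. At day 14 and passage 2 and at day 90 and passage 1, 0 members of either list were called.

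The differences between comparisons were tested by interaction terms. Between passages 1 and 2 at day 14, edgeR called 0 of 10563 genes (0%), while 729 had an unadjusted p under 0.05, and DESeq2 called 18. S100a8 had an interaction of 4.29 (SE 0.86, adjusted p = 0.181) and Gsta4 of 4.02 (SE 0.81, adjusted p = 0.181). Between day 14 and day 90 at passage 1, edgeR called 2 genes (0.0189%), while 857 had an unadjusted p under 0.05, and DESeq2 called 24. They were Tmprss4, with an interaction of 2.85 (SE 0.39, adjusted p = 0.00222), and Car6, with 4.76 (SE 0.78, adjusted p = 0.0282). Tmprss4 went from 39.7 ± 4.82 to 126 ± 53.4 CPM at day 14 and from 89.1 ± 3.84 to 39.3 ± 15.7 CPM at day 90. Car6 stood at 10.0 ± 4.28 and 74.7 ± 47.8 CPM at day 14 and at 16.6 ± 10.1 and 4.10 ± 1.85 CPM at day 90. Aldh1a3 missed the threshold, with an interaction of 2.64 (SE 0.49, adjusted p = 0.0708). The call of Tmprss4 held without each of the 12 libraries in turn (adjusted p up to 0.0176), and that of Car6 was lost without any library except IR replicate 3 of day 14, sham replicates 2 and 3 of day 90 and IR replicate 1 of day 90 (adjusted p up to 0.133). Car6 also lost it with the compared groups alone (adjusted p = 0.0701) and with a replicate block (adjusted p = 0.0918).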

How the data were processed

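The 24 libraries were QuantSeq 3′ RNA-seq. The deposited values are raw counts per gene, 1 table per library, and the submitters' processing notes name bcl2fastq and build GRCm39. For the aligner, counting tool, annotation and strand the sources used here give nothing, so antisense partners and close copies cannot be separated. The tables list 47643 genes and 5 lines that name no gene. These lines were left out, and reads on no feature were 15.1% to 26.5%. Names came from GENCODE M21 by ID, with 47224 matched.

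Genes were kept by edgeR's filterByExpr over 8 groups (10563 genes). edgeR 4.0.16 (R 4.3.3) with TMM scaling and a quasi-likelihood fit to all 24 libraries, 1 mean per group, gave two-sided tests with Benjamini-Hochberg adjustment at 0.05. CPM are TMM-scaled. Intervals of count ratios cover counting error only, at 95%. The fit was checked on simulated counts. DESeq2 1.42.0, other scalings and filters, a replicate block and leaving out each library were alternatives. Named genes are all called genes, the 3 tested members of smallest p in each antioxidant, squamous, prolactin, myoepithelial and signalling list, the 2 of smallest p in each context list, and Bmp4, apart from items not reported here. The gene lists and members were chosen with earlier results of these data known, so they give no independent support. Whether replicate numbers pair the samples was not stated, and the main fit treats them as unpaired.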

Additional observations from a re-analysis of the deposited data

Results flagged for a closer look

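The response to irradiation differed between day 14 and day 90 at passage 1 for 2 genes by the interaction term of edgeR's fit. Tmprss4 had an interaction of 2.854 on the log2 scale (SE 0.3865, adjusted p = 0.002222), being higher in all 3 IR libraries at day 14 and lower on average at day 90. Car6 had an interaction of 4.761 (SE 0.7769, adjusted p = 0.02822), with the same directions, which was not called with the compared groups alone (adjusted p = 0.07006) or with a replicate block (adjusted p = 0.09183). The cause of either difference was not tested.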

How the results depend on the processing

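The 36 calls of IR against sham became 123 with DESeq2 (84 higher and 39 lower), 460 with no filter on low counts (238 and 222), 81 with the compared groups alone (52 and 29), 51 with total counts as the scaling (47 and 4) and 4 with a replicate block (3 and 1), and 0 to 146 with 1 library left out. The sign of all 36 was the same in each of these fits that gave a value. The interaction of irradiation with passage had 0 calls, 18 with DESeq2, 241 with no filter, and 0 to 24 with 1 library left out. The interaction with day had 2 calls, 24 with DESeq2, 12 with total counts, 196 with no filter, 3 with the compared groups alone, 1 with a replicate block, and 1 to 23 with 1 library left out. Whether replicate numbers pair the samples was not stated in the labels. Deviations from the group mean at day 14 and passage 1 correlated at 0.191, −0.0134 and 0.120 between same-numbered sham and IR libraries. Between libraries of different number they correlated at −0.183 to 0.0602. These values do not decide whether the samples were paired. The share of higher calls, 86.1%, was 68.3% with DESeq2, 64.2% with the compared groups alone, 51.7% with no filter and 71.2% without IR replicate 3. No named gene reversed its sign under any alternative run. The cause of these shifts was not tested. At 1151608 to 2192990 counts per library, genes of a few counts, such as Flg, Tagln and Myl9, did not pass the filter and were not tested.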
